A study of Mus musculus with 8 samples.

Results

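The genes described here are 8 genes of the interferon response: the membrane protein genes Ifitm1, Ifitm2 and Ifitm3, the transcription factor genes Stat2, Irf1, Irf3 and Irf9, and B2m, the light chain of class I major histocompatibility molecules. They were taken by symbol, and all 8 had a row in each of 4 tables of comparisons that together listed 16896 genes. The assay was TT-seq, in which RNA made during a short pulse of 4-thiouridine is captured and sequenced, so that its counts follow new transcription more closely than total RNA does. The cells were ES-E14TG2a (E14), a male mouse embryonic stem cell line, with lysine exchanged for alanine at residue 122 of histone H3.3 (K122A). H3.3 is made from 2 genes, H3f3a and H3f3b.

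Wildtype cells gave 3 libraries. In the single-targeted group, 1 line carried H3f3a A/A beside intact H3f3b (WT/WT) and the other carried intact H3f3a (WT/WT) beside H3f3b A/A, which makes 2 mutant alleles per line. In the dual-targeted group, each of 3 lines carried 3 mutant alleles. A pair of clones had H3f3a A/A together with H3f3b WT/A, and the third line had H3f3a WT/A together with H3f3b A/A. Since every mutant line was profiled once, libraries of 1 mutant group differ by line as well as by experiment. No treatment with interferon is given in the labels. Media with LIF alone and with LIF and 2i are both described, and the labels do not tie either to the libraries.

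Interferons bind receptors at the cell surface, and the kinases JAK1, JAK2 and TYK2 then phosphorylate STAT proteins. STAT2 joins IRF9 in the complex ISGF3, which binds the interferon-stimulated response element (ISRE) of target promoters, whereas STAT dimers bind the gamma-activated site (GAS). IRF3 is switched on when viral nucleic acid is sensed, IRF1 is an interferon-induced activator of class I genes, and IFITM proteins hinder the entry of viruses through membranes. Embryonic stem cells are known for a weak response to interferon, and Ifitm3, also called fragilis, is known as an early marker of the germ line.

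All 8 genes matched the RefSeq promoter table (build GRCm38.p6), which was searched in the 250 bases before each start, on both strands, for the ISRE core GAAANNGAAA (TTTCNNTTTC on the other strand) and for the GAS, TTCNNNGAA, which reads alike on both. The ISRE core was found before Stat2, B2m and Ifitm2 and the GAS before Irf1, while 2.98% of 32851 promoters of the same length held an ISRE core and 7.02% a GAS. Neither was found in the windows of Ifitm1, Ifitm3, Irf3 and Irf9. The Ifitm1 window, and an Irf9 window as well, lie after the gene's start in GENCODE, so they do not cover the bases before that start. The stretches below are the bases before the start that lie in no annotated exon, 5′ to 3′ along the gene's own strand, with the motif in capitals. The Ifitm2, Ifitm1 and Ifitm3 stretches are shown because these neighbouring genes were not called alike, and the others because Stat2 and B2m fell and Irf1 holds the GAS.
Stat2: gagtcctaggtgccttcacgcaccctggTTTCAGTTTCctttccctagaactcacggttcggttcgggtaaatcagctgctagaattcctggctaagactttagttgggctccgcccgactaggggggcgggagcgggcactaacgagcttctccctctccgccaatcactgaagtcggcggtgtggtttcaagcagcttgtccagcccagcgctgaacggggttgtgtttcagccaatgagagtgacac
B2m: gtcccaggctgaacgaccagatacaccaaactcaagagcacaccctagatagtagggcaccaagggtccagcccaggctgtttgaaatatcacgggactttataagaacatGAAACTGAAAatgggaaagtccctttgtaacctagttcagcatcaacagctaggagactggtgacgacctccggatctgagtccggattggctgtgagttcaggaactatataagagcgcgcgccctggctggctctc
Irf1: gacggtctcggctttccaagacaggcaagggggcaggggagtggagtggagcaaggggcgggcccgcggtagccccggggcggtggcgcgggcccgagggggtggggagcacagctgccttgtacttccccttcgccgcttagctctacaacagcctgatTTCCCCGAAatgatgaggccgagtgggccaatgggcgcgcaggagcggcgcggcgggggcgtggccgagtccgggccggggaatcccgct
Ifitm2: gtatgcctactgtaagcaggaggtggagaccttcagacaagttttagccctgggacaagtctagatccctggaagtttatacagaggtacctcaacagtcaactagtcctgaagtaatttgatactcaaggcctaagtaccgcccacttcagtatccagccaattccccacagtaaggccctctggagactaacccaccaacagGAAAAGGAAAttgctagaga
Ifitm1: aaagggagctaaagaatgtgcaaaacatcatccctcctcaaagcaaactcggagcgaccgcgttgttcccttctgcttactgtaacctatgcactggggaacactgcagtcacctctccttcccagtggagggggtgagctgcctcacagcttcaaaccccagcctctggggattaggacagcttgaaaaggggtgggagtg
Ifitm3: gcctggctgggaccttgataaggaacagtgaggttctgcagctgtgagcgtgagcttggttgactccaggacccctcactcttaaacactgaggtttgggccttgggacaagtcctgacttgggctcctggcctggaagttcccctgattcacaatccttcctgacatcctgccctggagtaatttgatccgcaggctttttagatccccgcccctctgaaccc
The Stat2 stretch is chr10:128270248-128270497 on the plus strand, and its motif begins at position -222 from the RefSeq start, which lies before the start in GENCODE. The B2m stretch is chr2:122147437-122147685 on the plus strand, with the motif at -139. That of Irf1 is chr11:53769764-53770013 on the plus strand, with the GAS at -90. The Ifitm2 stretch is chr7:140955988-140956211 on the minus strand, with the motif at -46. The Ifitm1 stretch, on the plus strand, is chr7:140967826-140968027, and the Ifitm3 stretch, on the minus strand, is chr7:141010771-141010994. A match describes letters in this window and does not show that a factor bound there.

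The deposited values were the authors' own DESeq2 results for each comparison: a mean of normalized counts, a log2 fold change with its standard error (SE), and a p adjusted over the table. Genes with an adjusted p under 0.05 are named called, and fold changes are given as mutant over wildtype or as dual-targeted over single-targeted. The deposited fold changes behave as shrunken values, drawn towards 0 where the evidence is weak, so their sizes are not strictly comparable between tables. Because the 4 tables average overlapping sets of libraries, the mean normalized count of each group was rebuilt from them by subtraction. The tables were scaled so that the median gene of the single-targeted lines, the dual-targeted lines and the clones equalled wildtype. The third dual-targeted line was not set in this way, and its median log2 ratio to wildtype was -0.02. These rebuilt means carry no error and depend on the scaling between tables, and that of the third dual-targeted line rests on a single library.

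In the dual-targeted lines Ifitm3 rose and Stat2, Irf9 and B2m fell, while Ifitm1, Ifitm2, Irf1 and Irf3 did not pass the test. That is 4 of 8 genes called in the authors' deposited table of dual-targeted lines against wildtype, where 20.9% of all genes were called, and the members' median log2 fold change was -0.13 beside 0.01 over all genes of mean count 50 or higher. By direction, 1 member was higher, beside 10.8% of all genes, and 3 were lower, beside 10.1%. In bulk RNA, fewer cells making a transcript and less of it per cell cannot be told apart. In the single-targeted lines 0 of 8 genes were called by DESeq2, where 2.96% of all genes were, and 3 of 8 had an unadjusted p under 0.05 in the authors' deposited table, beside 12.4% of all genes. When dual-targeted lines were set against single-targeted ones, Stat2 alone passed, 1 of the 7 members with a value for the adjusted p, beside 7.06% of all genes, or 2.69% when lower genes alone are counted. In the clones against wildtype 4 of 8 were called, with Ifitm1 in place of B2m, beside 19.3% of all genes. Of these, 1 was higher and 3 were lower, beside 9.05% and 10.3% of all genes.

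**Figure D1:**
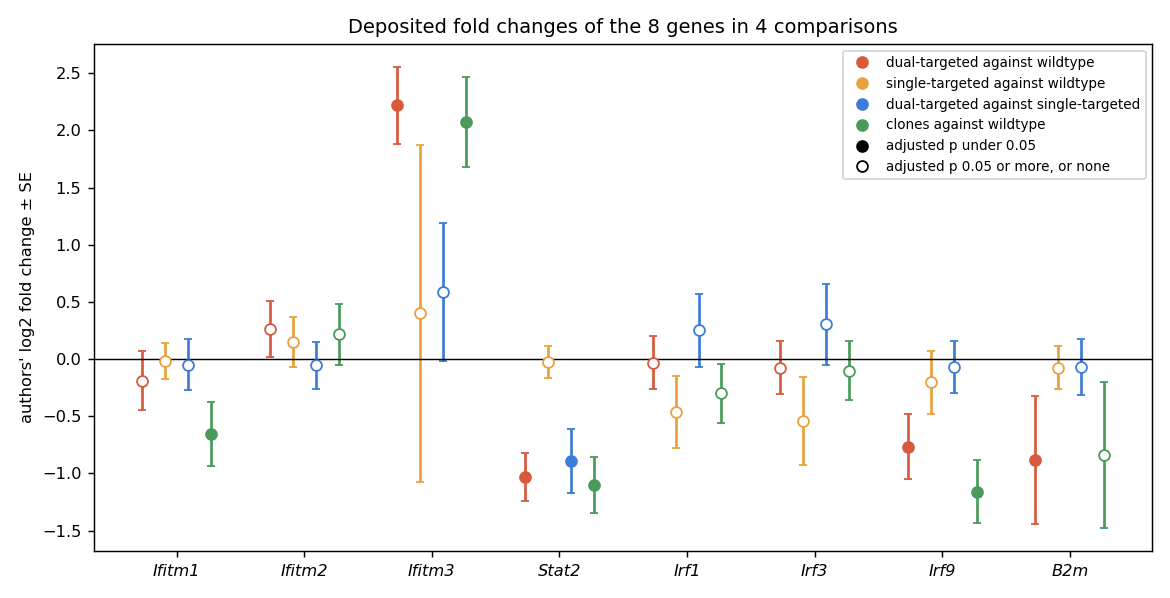
Authors' log2 fold change of each of the 8 genes (vertical axis) in 4 comparisons (colours), with bars of 1 SE. Filled points have an adjusted p under 0.05. Ifitm3 is the gene above wildtype with filled points (2.22 and 2.07), Stat2 is filled in 3 comparisons, and the single-targeted comparison has no filled point.

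Ifitm3 is the member that rose. It lies at chr7:141009586-141010770 on the minus strand (GRCm38, as are the gene positions that follow) and has 2 exons. Its rebuilt mean normalized count was 25.5 in wildtype, 59.5 in the single-targeted lines, 117 in the clones and 146 in the third dual-targeted line. Both dual-targeted genotypes thus stood above the single-targeted mean, at 4.61 and 5.75 times wildtype against 2.33 times. Without rescaling between the tables the same 4 values were 30.6, 53.5, 117 and 132, in the same order. The log2 fold change in the authors' deposited table of dual-targeted lines against wildtype was 2.22 ± 0.34 (SE, DESeq2 adjusted p = 5.19e-10), the 43rd highest of 11561 genes of mean count 50 or higher. Ifitm3 reached that mean count (76.25 in this comparison) only through the dual-targeted lines, so its rank is no separate support for the rise. For the clones the authors' deposited table gave 2.07 ± 0.39 (SE, DESeq2 adjusted p = 5.50e-07). The single-targeted lines did not pass, where the authors' deposited table had 0.40 ± 1.47 (SE, DESeq2 adjusted p = 0.181), and an SE that wide leaves the size there unknown. Nor did the dual-targeted lines differ from the single-targeted lines by the adjusted test, at 0.59 ± 0.61 (SE, DESeq2 adjusted p = 0.109, unadjusted 0.0136) in the authors' deposited table.

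Ifitm1 and Ifitm2 lie in the same cluster on chromosome 7, where Ifitm5, Ifitm2, Ifitm1 and Ifitm3 follow each other with gaps of 4.55, 11.2 and 39.8 kb. Their products are, like IFITM3, small membrane proteins that act on viral entry. Ifitm1 (chr7:140967221-140969825, plus strand) had rebuilt means of 163 in wildtype, 156 in the single-targeted lines, 93.1 in the clones and 211 in the third line, so that the clones lay below wildtype and the other dual-targeted line above it. It fell in the clones, at -0.66 ± 0.28 (SE, DESeq2 adjusted p = 0.0273) in the authors' deposited table. Over all dual-targeted lines the authors' deposited table had -0.19 ± 0.26 (SE, DESeq2 adjusted p = 0.547). Ifitm2 (chr7:140954837-140955987, minus strand) had rebuilt means of 123, 176, 153 and 167 in the same order and was called in no comparison, with log2 fold changes from -0.06 to 0.26 in the authors' deposited tables.

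Reads of these genes may be hard to place. Of all 50-base windows in their annotated transcripts, 48.5% of Ifitm2, 10.0% of Ifitm3 and 5.02% of Ifitm1 also occur in transcripts of other genes, and 40.9% of the exon bases of Ifitm2 are also exon of Gm45717 on the same strand. The values of Ifitm2 are therefore uncertain. The further members of the family with rows were Ifitm5, the bone-restricted member of the cluster, and Ifitm7, which lies apart on chromosome 16 and shares 0 windows with other genes. Ifitm7 rose by a log2 fold change of 1.22 ± 0.27 (SE, DESeq2 adjusted p = 2.44e-05) in the authors' deposited table of dual-targeted lines against wildtype, from a rebuilt mean of 63.3 in wildtype to 165 in the clones and 136 in the third line. Ifitm5 did not pass, at 0.16 in the authors' deposited table of the same comparison, so 2 of 5 family members with rows were called higher and 0 lower, beside 10.8% and 10.1% of all genes.

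**Figure D2:**
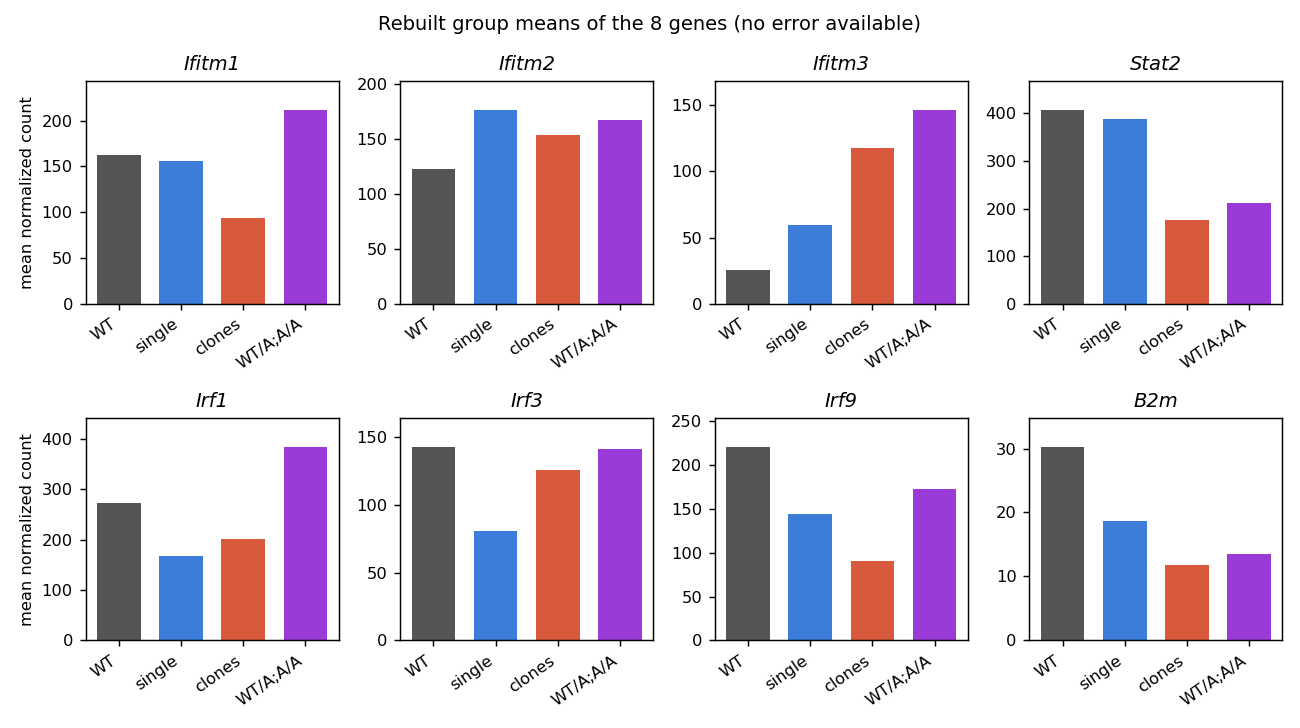
Rebuilt mean normalized count of each of the 8 genes (vertical axis, from 0) in wildtype (WT), the single-targeted lines, the clones and the third dual-targeted line (WT/A;A/A), with no error available. Ifitm3 goes from 25.5 in wildtype to 117 and 146, Stat2 from 407 to 176 and 212, and Ifitm1 and Irf1 stand on opposite sides of wildtype in the clones and in the third line.

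The genes around Ifitm3 did not rise with it. Within 1 Mb, 41 other genes of mean count 50 or higher had a median log2 fold change of 0.00 in the authors' deposited table of dual-targeted lines against wildtype. Of these, 1 was called higher and 7 lower, beside 10.8% and 10.1% of all genes. A fold change above that of Ifitm3 was seen in 0 of 41, but few genes anywhere had one, as Ifitm3 ranked 43rd highest of 11561. Bet1l, which encodes a vesicle fusion protein, was the neighbour that rose, at 0.75 ± 0.26 (SE, DESeq2 adjusted p = 0.00642) in the authors' deposited table. Sirt3, a mitochondrial deacetylase gene, fell, at -0.59 ± 0.20 (SE, DESeq2 adjusted p = 0.00810) in the authors' deposited table. The count in the clones was also 1 higher and 7 lower, beside 9.05% and 10.3% of all genes, and Ifitm1 was among the lower genes.

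Stat2, which encodes the partner of IRF9 in ISGF3, fell in the dual-targeted lines and not detectably in the single-targeted ones. It lies at chr10:128270559-128292849 on the plus strand and has 19 exons. Its rebuilt means were 407 in wildtype, 388 in the single-targeted lines, 176 in the clones and 212 in the third line. The single-targeted mean was thus 95.5% of wildtype, and both dual-targeted genotypes were far below it, at 43.3% and 52.2%. In the authors' deposited table of dual-targeted lines against wildtype Stat2 had -1.03 ± 0.21 (SE, DESeq2 adjusted p = 5.86e-06). The clones alone had -1.10 ± 0.24 (SE, DESeq2 adjusted p = 2.16e-05) in the authors' deposited table. Single-targeted lines had -0.03 ± 0.14 (SE, DESeq2 adjusted p = 0.949) in the authors' deposited table. The difference itself was tested by the authors: dual-targeted against single-targeted lines gave -0.89 ± 0.28 (SE, DESeq2 adjusted p = 0.00657) in the authors' deposited table. Among 48 genes within 1 Mb of Stat2, 7 were called higher and 5 lower in the dual-targeted lines, beside 10.8% and 10.1% of all genes. Their median was 0.06, and 1 of 48 had a lower fold change than Stat2 in the authors' deposited table of dual-targeted lines against wildtype. Stat2 was the 315th lowest there of 11561 genes of mean count 50 or higher, so few genes anywhere lay below it.

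Irf9, the DNA-binding subunit of ISGF3, fell most in the clones. It lies at chr14:55603571-55610030 on the plus strand. Its rebuilt means were 221 in wildtype, 144 in the single-targeted lines, 90.8 in the clones and 173 in the third line, so every mutant group lay below wildtype and the clones lay lowest. The authors' deposited table gave -1.16 ± 0.28 (SE, DESeq2 adjusted p = 8.06e-05) for the clones against wildtype. Over all dual-targeted lines the change was -0.77 ± 0.29 (SE, DESeq2 adjusted p = 0.00999) in the authors' deposited table. It was not called in the single-targeted lines, at -0.20 ± 0.28 (SE, DESeq2 adjusted p = 0.404), or between dual-targeted and single-targeted lines, at -0.07 ± 0.23 (SE, DESeq2 adjusted p = 0.757), in the authors' deposited tables. A difference in Irf9 between the mutant groups was therefore not shown.

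Much of chromosome 14 around Irf9 was lower in the same clones. Of 37 genes within 1 Mb, 21 were called lower and 1 higher in the authors' deposited table of the clones, where 10.3% of all genes were called lower. Their median log2 fold change was -0.64, beside -0.51 over chromosome 14 and 0.01 over all genes. Irf9 at -1.16 was lower than 27 of the 37 neighbours and higher than 10 of them in the authors' deposited table. With the neighbours' median taken out, an alternative chosen after seeing the data, Irf9 was at -0.52 in the clones and -0.47 in all dual-targeted lines. In 5 Mb windows along the chromosome the median lay between -0.56 and -1.10 from 10 Mb before Irf9 to 25 Mb after it, and between -0.14 and 0.16 in the windows from 20 to 45 Mb before it. In rebuilt means the neighbours' median was 0.585 of wildtype in the clones, 0.756 in the single-targeted lines and 1.10 in the third line, where the neighbours were not low. The part of the neighbourhood in the fall of Irf9 was not tested.

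The nearest called neighbours have varied roles, and most of them fell. Rnf31, which encodes the catalytic subunit of the linear ubiquitin ligase and shares 123 exon bases with Irf9, fell by 1.20 on the log2 scale (SE 0.25, DESeq2 adjusted p = 4.89e-06) in the authors' deposited table of the clones. Rec8, a meiotic cohesin gene, had -1.19 ± 0.34 (SE, DESeq2 adjusted p = 7.98e-04) and Pck2, a mitochondrial enzyme gene of gluconeogenesis, -1.20 ± 0.30 (SE, DESeq2 adjusted p = 1.31e-04) in the authors' deposited table. Psme1, a proteasome activator subunit of antigen processing, also lies here and had -0.79 ± 0.35 (SE, DESeq2 adjusted p = 0.0257) in the authors' deposited table. Tgm1, a transglutaminase gene 96.4 kb from Irf9, went the other way, at 2.50 ± 0.30 (SE, DESeq2 adjusted p = 2.80e-15) in the authors' deposited table of dual-targeted lines against wildtype and 2.47 ± 0.35 in that of the clones.

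**Figure D3:**
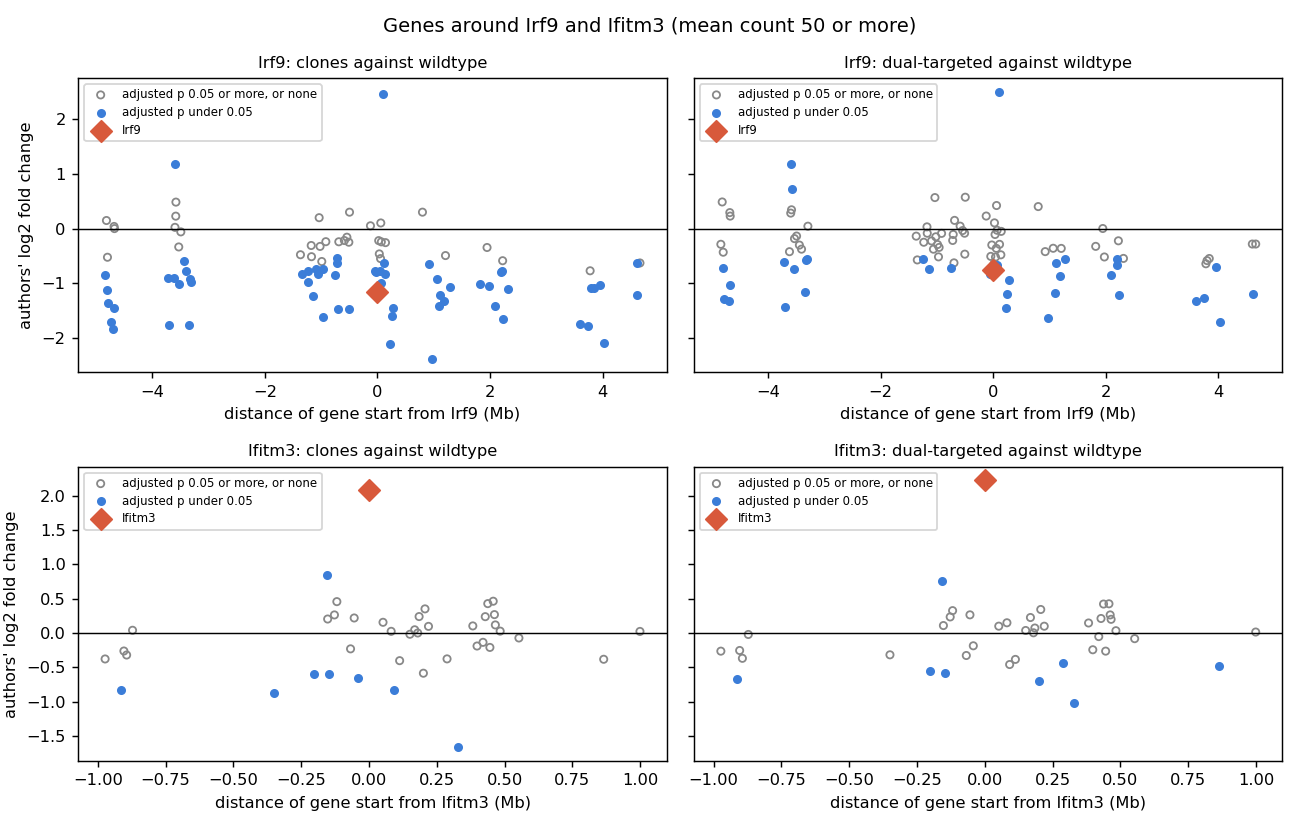
Authors' log2 fold change (vertical axis) of genes of mean count 50 or higher by distance of their start from Irf9 (upper panels, to 5 Mb) and from Ifitm3 (lower panels, to 1 Mb), for the clones (left) and all dual-targeted lines (right) against wildtype. Blue points have an adjusted p under 0.05. Irf9 sits among lower neighbours (21 of 37 within 1 Mb in the clones), whereas the 41 neighbours of Ifitm3 have a median of 0.00 in the dual-targeted lines.

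Irf1 and Irf3 were not called in any comparison, and their lowest values were in the single-targeted lines. Irf1 (chr11:53770014-53778374, plus strand) had rebuilt means of 272 in wildtype, 168 in the single-targeted lines, 202 in the clones and 384 in the third line. In the authors' deposited table of single-targeted lines Irf1 had -0.47 ± 0.31 (SE, DESeq2 adjusted p = 0.140, unadjusted 0.00784). Irf3 (chr7:44997648-45002848, plus strand) had rebuilt means of 143, 80.5, 126 and 142 in the same order. Its value in the authors' deposited table of single-targeted lines was -0.54 ± 0.38 (SE, DESeq2 adjusted p = 0.127, unadjusted 0.00662). Against wildtype the dual-targeted lines had -0.03 ± 0.23 for Irf1 and -0.07 ± 0.23 for Irf3 in the authors' deposited table. Irf3 shares 88 exon bases with Bcl2l12 on the opposite strand, and Irf1 shares 135 with Gm17334. The sources used here do not say whether counting used strand, so reads from those bases cannot be assigned.

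B2m, without which class I molecules do not reach the cell surface, had few counts. It lies at chr2:122147686-122153083 on the plus strand, and its rebuilt means were 30.3 in wildtype, 18.7 in the single-targeted lines, 11.8 in the clones and 13.6 in the third line. Every mutant group was below wildtype. The authors' deposited table of dual-targeted lines against wildtype gave -0.88 ± 0.56 (SE, DESeq2 adjusted p = 0.0481), which is close to the threshold. It did not pass in the clones, at -0.84 ± 0.64 (SE, DESeq2 adjusted p = 0.0735), nor in the single-targeted lines, at -0.08 ± 0.19 (SE, DESeq2 adjusted p = 0.657), in the authors' deposited tables. Between dual-targeted and single-targeted lines its value was -0.07 ± 0.25 with an empty adjusted p in the authors' deposited table. B2m lies wholly within the span of Patl2, an RNA-binding protein gene on the opposite strand, with 0 shared exon bases. Patl2 fell in the same comparison, at -2.73 ± 0.38 (SE, DESeq2 adjusted p = 1.37e-11) in the authors' deposited table. The part of Patl2 reads in the B2m values was not tested.

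The wider pathway moved in both directions. Of 90 other interferon genes on 7 lists, 63 had a row in the authors' deposited table of dual-targeted lines against wildtype, and 8 were called higher and 7 lower (23.8%, beside 20.9% of all genes), with a median log2 fold change of -0.04. Of the genes with an adjusted p, 1 of 54 was called in the single-targeted lines, higher (1.85%, beside 2.96% of all genes). The clones had 8 higher and 6 lower of 58 (24.1%, beside 19.3% of all genes) in the authors' deposited table. Between dual-targeted and single-targeted lines 3 were higher and 1 lower of 46 (8.70%, beside 7.06% of all genes) in the authors' deposited table. List genes without a row, among them Isg15, Mx1, Ifit1, Ifit3, Irf7 and Usp18, were not analysed here.

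At the top of the pathway, 0 of the 7 receptor and kinase genes were called by DESeq2 in the dual-targeted lines, beside 20.9% of all genes. An unadjusted p under 0.05 was seen in 2, beside 32.7% of all genes. All 7, Ifnar1, Ifnar2, Ifngr1, Ifngr2, Jak1, Jak2 and Tyk2, had negative values in the authors' deposited table, from -0.58 for Ifngr2 to -0.04 for Jak1. Their median was -0.29, beside 0.01 over all genes, and a fall shared by these 7 genes was not tested. Among the STAT and IRF genes, Stat3, which carries the LIF signal in embryonic stem cells, had 0.53 ± 0.18 (SE, DESeq2 adjusted p = 0.0111) in the authors' deposited table of dual-targeted lines. Its value was similar in the single-targeted lines, though not called, at 0.53 ± 0.23 (SE, DESeq2 adjusted p = 0.056). Between dual-targeted and single-targeted lines it was -0.05 ± 0.15 (SE, DESeq2 adjusted p = 0.86). With the members counted, 1 of 8 STAT and IRF genes was called higher and 2 were lower in the dual-targeted lines against wildtype, beside 10.8% and 10.1% of all genes.

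**Figure D4:**
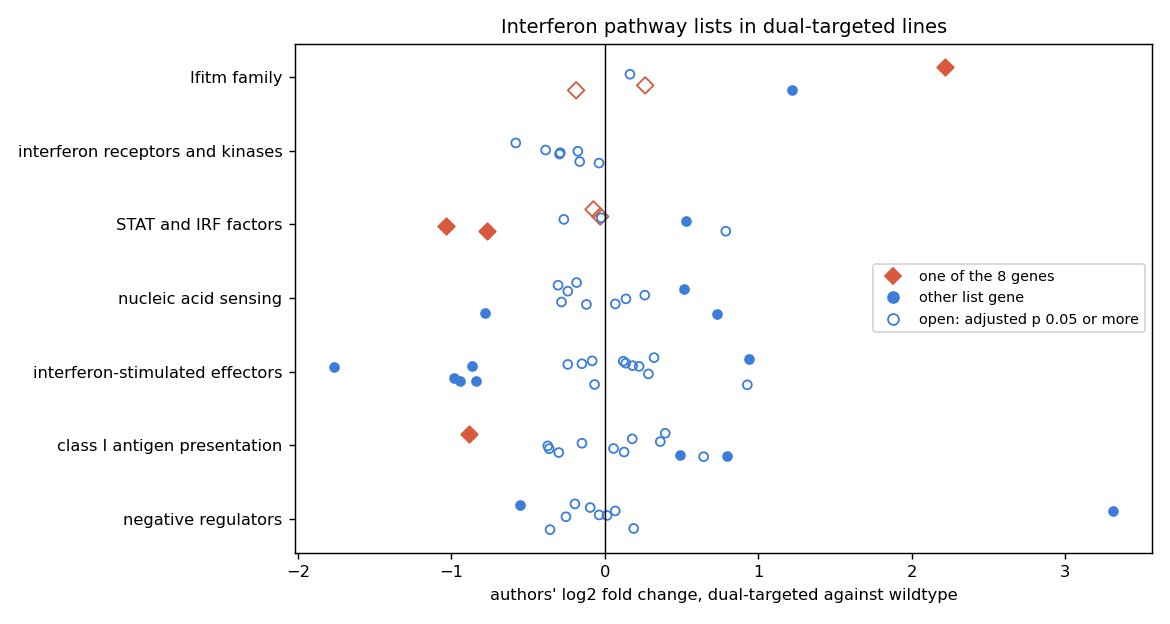
Authors' log2 fold change in dual-targeted lines against wildtype (horizontal axis) of each gene on 7 interferon pathway lists (rows), where diamonds are the 8 genes and filled symbols have an adjusted p under 0.05. The 7 receptor and kinase genes lie below 0 with none filled, and Socs3 at 3.32 lies farthest to the right.

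Genes that sense viral nucleic acid and carry the alarm had 2 called higher and 1 lower of 11 in the dual-targeted lines against wildtype, a share of 27.3% beside 20.9% of all genes. The RNA helicase gene Ddx58, which encodes RIG-I, had 0.73 ± 0.21 (SE, DESeq2 adjusted p = 0.00160) and Trim25, the ligase that acts on RIG-I, 0.52 ± 0.19 (SE, DESeq2 adjusted p = 0.0147) in the authors' deposited table of dual-targeted lines. The lower gene was Rnf31, the neighbour of Irf9. Of the interferon-stimulated effectors 17 of 32 had a row, and 1 was called higher and 5 lower, beside 10.8% and 10.1% of all genes. Several of these calls rest on low counts near the threshold. The higher gene, Trim21, had a mean count of 21.05 (DESeq2 adjusted p = 0.0390). The lower genes Oas3 and Xaf1 had 30.6 (DESeq2 adjusted p = 0.0446) and 18.9 (DESeq2 adjusted p = 0.0468). Rnf213, a large ubiquitin ligase gene, fell by 0.87 on the log2 scale (SE 0.23, DESeq2 adjusted p = 4.29e-04) in the authors' deposited table. Ifi30, a lysosomal thiol reductase gene of antigen processing, fell by 0.98 (SE 0.29, DESeq2 adjusted p = 0.00112) in the same authors' deposited table, and lies on chromosome 8, whose median there was -0.32. Ifit2, an RNA-binding effector gene, had -1.77 ± 0.80 (SE, DESeq2 adjusted p = 0.0104) in the authors' deposited table, on a mean count of only 13.7.

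Class I antigen presentation had 2 genes called higher and 1 lower of 13, the lower gene being B2m, a share of 23.1% beside 20.9% of all genes. Both higher genes encode chaperones of the endoplasmic reticulum that many proteins use. Pdia3 had 0.80 ± 0.21 (SE, DESeq2 adjusted p = 3.51e-04) and Calr 0.49 ± 0.22 (SE, DESeq2 adjusted p = 0.0482) in the authors' deposited table of dual-targeted lines against wildtype. The class I heavy chain genes did not pass, with -0.36 ± 0.26 for H2-K1 and -0.37 ± 0.28 for H2-D1 in the authors' deposited table. Among the negative regulators, Socs3, a STAT-induced inhibitor of JAK kinases that is also a target of LIF signalling, had 3.32 ± 0.28 with an adjusted p listed as 0 in the authors' deposited table. It rose in the single-targeted lines too, at 1.45 ± 0.33 (SE, DESeq2 adjusted p = 1.81e-04), and further in the dual-targeted than in the single-targeted lines, at 1.65 ± 0.34 (SE, DESeq2 adjusted p = 5.94e-05), in the authors' deposited tables. Pias3, an inhibitor of STAT3, fell by 0.56 (SE 0.20, DESeq2 adjusted p = 0.0146) in the authors' deposited table of dual-targeted lines.

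Genes with the nearest pattern over the 3 comparisons with wildtype, which share the wildtype libraries, were sought among 11099 genes of mean count 50 or higher in every table, by Euclidean distance of the deposited log2 fold changes. Ifitm3 itself lay below that filter in the single-targeted comparison (mean count 39.7), and its value there was 0.40 ± 1.47 (SE). Its distances are therefore uncertain. Nearest to Ifitm3 were Gm48023 (distance 0.223), Foxd3 (0.344), a transcription factor gene of pluripotent and neural crest cells, and Slc23a1 (0.351), a vitamin C transporter gene. Nearest to Stat2 were Gm45464 (0.0454), Ybx2 (0.0524), a germ cell RNA-binding protein gene, and Gm38120 (0.0555).

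The labelled cell type was checked against its markers. All 6 stem cell markers (Pou5f1, Sox2, Nanog, Esrrb, Zfp42 and Klf4) had a mean count of at least 660 in every one of the authors' deposited tables. In the dual-targeted lines against wildtype 3 of the 6 were called higher and 0 lower, beside 10.8% and 10.1% of all genes. The authors' deposited table gave log2 fold changes of 0.75 for Pou5f1, 0.49 for Nanog and 1.08 for Klf4. Sox2 at 0.19, Esrrb at -0.22 and Zfp42 at -0.20 were not called there. The clones also had 3 of 6 called higher and 0 lower, beside 9.05% and 10.3% of all genes. In the single-targeted lines 1 of 6, Nanog, was called, higher, at 0.68 in the authors' deposited table, where 2.96% of all genes were called. Of 4 fibroblast feeder markers Thy1 and Pdgfra had rows, with a summed rebuilt mean from 34.7 to 58.2 over the groups, and Col1a1 and Col1a2 had none. Of 3 macrophage markers 0 had a row. Of 4 primitive endoderm markers Gata4 and Dab2 had rows in every comparison. Their rebuilt means summed to 27.8 in the clones, 40.0 in wildtype, 45.3 in the single-targeted lines and 65.5 in the third line. Gata6, without a row in the single-targeted comparison with wildtype, was left out of that sum, and Sox17 had no row. The part of such cells, or of the change in stem cell markers, in the values above was not tested.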

How the data were processed

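TT-seq libraries of E14 embryonic stem cells were compared as 3 wildtype, 2 single-targeted and 3 dual-targeted libraries. Alignment with STAR, counting with featureCounts and testing with DESeq2, on the builds mm10 and GRCm38.p6, are named without versions in the submitters' processing notes. The authors deposited 4 tables of their own comparisons. Per the file headers, these hold the mean normalized count, used as a signal value, the log2 fold change, its standard error, used as a score, and the p-value with its adjusted p-value. Values per library were not used, so depth per library is unknown, and precision enters only through the deposited standard errors. The wildtype libraries are labelled biological replicates, so p-values measure the spread between those and between lines. An adjusted p-value as deposited was given for 16493 of 16498, 15030 of 16255, 13141 of 16149 and 15640 of 16254 genes. Empty values stayed empty.

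Group means were rebuilt by subtraction, with scales of 0.983, 1.06 and 0.957 on the single-targeted, dual against single and clones tables, and tested on simulated data. The simulation gave each comparison a constant offset and left out scaling that differs by library, so it does not test for that. For 100% of 2726, 387, 885 and 2504 called genes the rebuilt means had the sign of the fold change. Chromosome medians and neighbours rest on genes of mean count 50 or higher. Positions came from GENCODE for GRCm38, promoters from RefSeq. The members, the lists and the tests were chosen with earlier results of these data known. Named were all 8 members, up to 3 called genes per list and comparison, up to 6 called neighbours of Ifitm3 and Irf9, and the 3 genes nearest to Ifitm3 and to Stat2. One gene is not reported here and was taken off its list. List genes that did not pass, genes without a row, overlapping genes and the called effectors Trim21, Oas3 and Xaf1 were named after their values were seen. Software was pandas 2.3.3, numpy 2.4.6, matplotlib 3.10.9 and scipy 1.17.1 under Python 3.11.15. Alternatives changed the adjustment, the threshold, a minimum fold change, the scaling and the lines included.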

Additional observations from a re-analysis of the deposited data

Results flagged for a closer look

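Of the 7 members with an adjusted p between dual-targeted and single-targeted lines, Stat2 alone passed this test of the difference itself. Its log2 fold change was -0.89 (DESeq2 adjusted p = 0.00657) in the authors' deposited table. There 7.06% of all genes were called, and 2.69% were called lower. No single library could be examined for standing apart, because values per library were not used.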

How the results depend on the processing

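The number of members called stayed within 1.5 times the main count in each comparison under every alternative run. At a threshold of 0.01 on the adjusted p, B2m was no longer called in the dual-targeted lines against wildtype, nor Ifitm1 in the clones. B2m also dropped out when p was adjusted over genes of mean count 50 or higher, because its own mean count of 21.3 lies below that. Without the third dual-targeted line (H3f3a WT/A with H3f3b A/A), which is the clones' comparison, B2m was not called and Ifitm1 was. Leaving out any other library was not run, since values per library were not used. Taking the median of chromosome 14 out moved Irf9 to -0.66 in the clones. When tables were not rescaled, 0 of 24 rebuilt ratios to wildtype changed sign. All 8 ratios of the third dual-targeted line became lower (Stat2 from -0.94 to -1.58 and Ifitm1 from 0.38 to 0.08 on the log2 scale). All 8 single-targeted ratios became lower too (Ifitm3 from 1.22 to 0.80 and Irf1 from -0.69 to -0.85). No paired analysis was possible because the deposited tables hold no values per library. Low counts limit B2m most, and the rebuilt means have no error.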

Other observations

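Ifitm1 and Irf1 stood on opposite sides of wildtype in the 2 dual-targeted genotypes. The rebuilt mean of Ifitm1 was 57.1% of wildtype in the pair of clones and 130% in the third dual-targeted line, and that of Irf1 was 74.3% and 141%. Without rescaling between the tables the log2 ratio of the third line was 0.08 for Ifitm1 and 0.21 for Irf1. That line gave 1 library, so these differences have no replicate check.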
